A study of Mus musculus with 6 samples.

Results

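A set of 9 genes of the complement system were followed as C2C12 mouse myoblasts became myotubes: the components C3, C4b, C1ra, Cfb and Masp1 and the regulators Serping1, Cd55, Cd59a and Clu. They were taken by gene symbol from the 54525 genes counted. C2C12 is an established line of mouse muscle precursor cells. RNA-seq covered 3 cultures at day 0 (D0, wild-type myoblasts) and 3 at day 5 of differentiation (D5, wild-type, labelled as the same cell type and as given no treatment). The cells grew in medium with fetal bovine serum and were differentiated in medium with a lower share of horse serum, so day and medium cannot be told apart, and all 6 libraries come from 1 line.

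Complement is a cascade of plasma proteases and the proteins they cleave. The classical pathway starts with C1q and the proteases C1r and C1s, the lectin pathway with sugar-binding proteins and the proteases of the MASP family, and both cleave C4 and C2 to form an enzyme that cleaves C3. The alternative pathway amplifies that cleavage through factor B, and regulators in plasma and on cell membranes stop the cascade on the host's own cells. The liver makes most of the plasma proteins, and muscle cells are known to make some of them, with the membrane regulators, in inflamed muscle.

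The counts on genes were 36555048 to 40895840 per D0 library and 25449759 to 25811300 per D5 library. Levels are given as counts per 1000000 scaled by TMM factors (CPM), and 3 counts, the level treated here as not detected, corresponded to 0.0713 to 0.0800 CPM at D0 and 0.119 to 0.122 CPM at D5. Floors and intervals on counts cover counting error only. A gene was called at a Benjamini-Hochberg adjusted p under 0.05 by the quasi-likelihood test of edgeR. By that rule 42.2% of the 16290 tested genes were higher and 40.8% lower at D5, so the size of a change says more here than a call does. The libraries matched their labels: Myog, the myogenic factor of differentiation, stood at 2.33 to 2.99 CPM at D0 and 512 to 518 CPM at D5. The 5 proliferation markers fell, with log2 fold changes of -5.11 to -1.87. Of 7 skeletal muscle markers, 6 reached the filter on low counts in both groups. Among these, 5 were called higher and 1 lower, beside 42.2% and 40.8% of all tested genes.

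Of the 9 complement genes, 5 were higher at D5 (C1ra, Cd55, Serping1, Masp1 and Cd59a), 1 was lower (Clu) and 3 (C3, C4b and Cfb) were too low to test. The 6 tested genes reached the filter on low counts in both groups. At least 2-fold changes were seen for 4 genes upward, against 19.3% of all tested genes, and for 1 gene downward, against 16.0%. The 3 libraries of D5 lay wholly above those of D0 for the 5 higher genes (42.2% of all tested genes did so) and wholly below for Clu (41.1% did so). The median log2 fold change was 1.15 over the 6 tested genes and 0.00 over all tested genes.

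**Figure D1:**
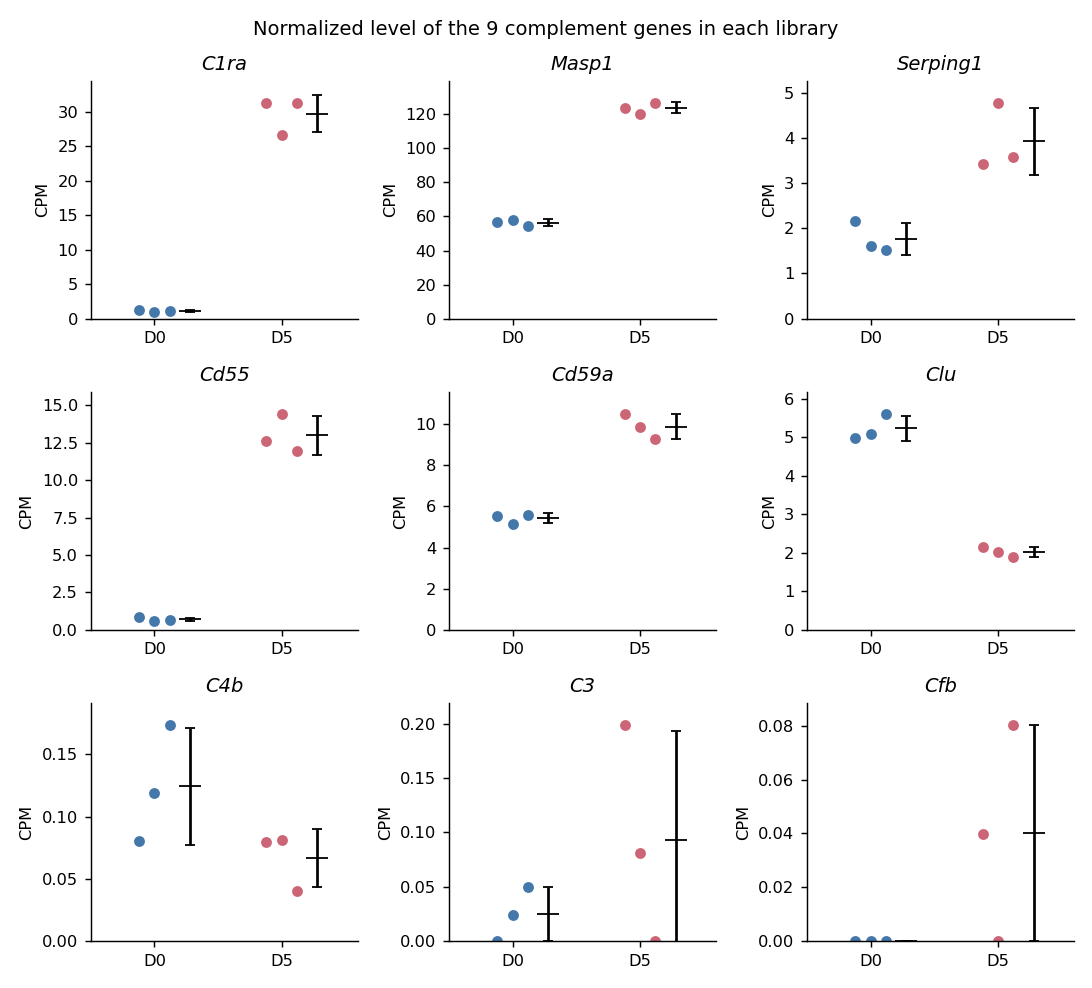
Level in CPM (linear axis from 0, a scale of its own in each panel) of each of the 9 complement genes in the 3 D0 and 3 D5 libraries (points, left to right replicates 1 to 3), with the mean and SD of each group beside them. C1ra and Cd55 were near 1 CPM or below at D0 and above 11 CPM in every D5 library, Clu fell, and the panels of C4b, C3 and Cfb show genes with at most 7 counts in any library.

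C1ra encodes C1r, the protease that, once C1q has bound, activates itself and then C1s. It stood at 1.31, 0.974 and 1.07 CPM in the 3 D0 libraries and at 31.3, 26.7 and 31.2 CPM in the 3 D5 libraries. Every D5 library was thus far above every D0 library. The change was 26.7-fold (log2 fold change 4.74, SE 0.10, adjusted p = 3.0e-27), and 95.8% of the tested genes had a lower log2 fold change. The gene spans chr6:124512405-124523443 on the plus strand of GRCm38 (ENSMUSG00000055172.10). It has a close copy, C1rb, and 48.0% of the 50-base stretches of its exons also occur in C1rb. C1rb was counted at 1, 0 and 2 reads at D0 and at 34, 32 and 32 reads at D5, so C1ra held 97.9% ± 2.23 (SD, n = 3) of the counts of the pair at D0 and 95.8% ± 0.353 at D5. The pair together went from 1.14 ± 0.181 CPM to 31.0 ± 2.66 CPM, and reads that could come from either copy leave the split between them uncertain.

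C1ra lies in a group of 5 genes for C1r, C1s and a C1r-like protease on chromosome 6. C1ra and C1rl, which reached the filter on low counts in both groups, were called higher at D5, as were 42.2% of all tested genes, and the other 3 are described by their values. C1s1, which encodes C1s, the protease that cleaves C4 and C2, was counted at 11, 12 and 13 reads at D0 (0.293, 0.285 and 0.323 CPM) and reached 87.6, 84.7 and 91.6 CPM at D5. The change was 289-fold by the fitted model (log2 fold change 8.18, SE 0.09), and the ratio of the library-scaled counts was 293 (95% exact interval 211 to 419). Its copy C1s2 went from 1, 3 and 1 reads to 115, 103 and 105 reads, a ratio of the library-scaled counts of 104 (95% exact interval 44.0 to 321). For C1rb the same ratio was 52.4 (interval 17.4 to 259). Of the 50-base stretches of C1s2, 26.9% also occur in C1s1, so the split of reads between C1s1 and C1s2 is uncertain. Together C1s1 and C1s2 went from 0.341 ± 0.0189 CPM to 92.3 ± 3.46 CPM. C1s1, C1s2 and C1rb reached the filter on low counts in the D5 libraries alone, the group where they are high, and so give no support to a count of genes. C1rl, which encodes the C1r-like protease, reached the filter in both groups and rose from 1.32 ± 0.243 to 14.2 ± 0.198 CPM (log2 fold change 3.43, SE 0.11, adjusted p = 1.9e-22).

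**Figure D2:**
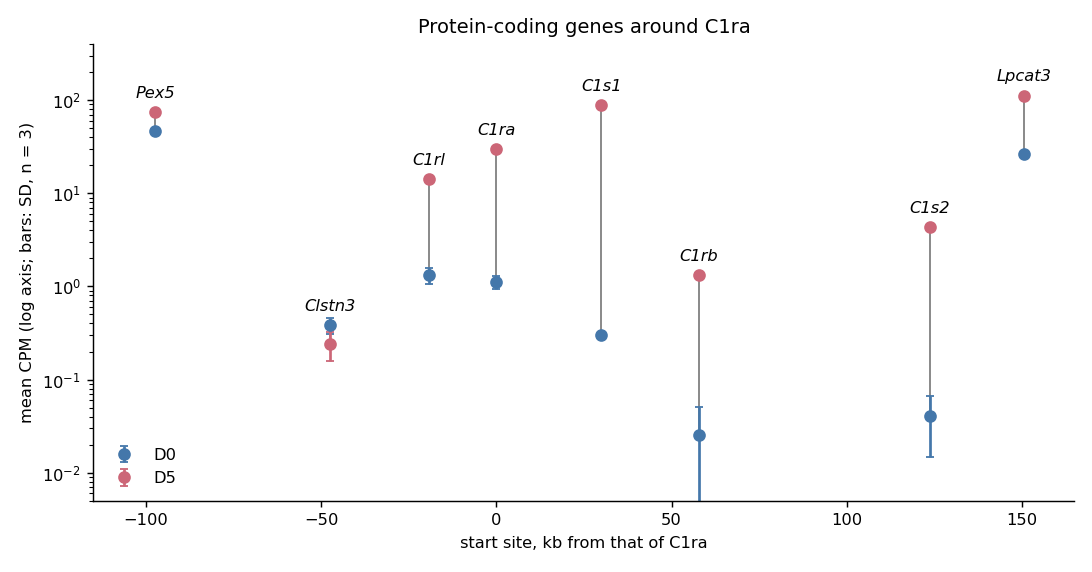
Mean CPM (log axis, bars show the SD of 3 libraries) at D0 and D5 of each protein-coding gene that starts about 150 kb or less from C1ra, plotted by the distance of its start from that of C1ra in kb. The 5 C1r and C1s genes were higher at D5, as were Pex5 and Lpcat3 at the ends of the window, while the levels of Clstn3, which was too low to test, overlapped (the bar of C1rb at D0 runs below the axis).

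The genes on either side of the group moved less. Pex5, which encodes a receptor for protein import into peroxisomes, rose with a log2 fold change of 0.67 (SE 0.04), and Lpcat3, which encodes a phospholipid-remodelling enzyme, with a log2 fold change of 2.08 (SE 0.04). Clstn3 stood at 0.384 ± 0.0748 CPM at D0 and 0.241 ± 0.0811 CPM at D5 and was not tested. Within the group, the level of C1s1 per kb of exonic length was 0.214, 0.279 and 0.288 times that of C1ra in the D0 libraries. It was 2.66, 3.03 and 2.80 times that of C1ra in the D5 libraries. These ratios restate the changes of C1s1 and C1ra given above, and C1s1 passed the filter through D5 alone. They are also uncertain because 50.8% of the 50-base stretches of C1ra and 35.1% of those of C1s1 occur in other genes. The ratios did not overlap, and 3 against 3 libraries give an exact two-sided permutation test no p below 0.1.

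RefSeq promoter windows, from 250 bases before to 50 bases after a start site, were available for 4 of the 9 genes (C3, C1ra, Cd55 and Cd59a) and for the other C1r and C1s genes. They are shown for C1ra and its copy C1rb, which moved together, for C1s1, which had the largest change of the group by the fitted model, and for Cd55, the other gene of the 9 with a change above 10-fold. All are of GRCm38.p6. C1ra is at chr6:124512371-124512670 (plus strand), C1rb at chr6:124570180-124570479 (plus), C1s1 at chr6:124542310-124542609 (minus) and Cd55 at chr1:130462695-130462994 (minus). Capitals mark matches to 5 motifs searched on both strands: TTCNNNGAA, the form bound by STAT factors, TTGCNNAA, a form of the C/EBP site, GGNNTTTCC, a form of the NF-kB site, GAAANNGAA, a form of the interferon response element, and CAGCTG, an E-box of the kind bound by myogenic factors.
C1ra: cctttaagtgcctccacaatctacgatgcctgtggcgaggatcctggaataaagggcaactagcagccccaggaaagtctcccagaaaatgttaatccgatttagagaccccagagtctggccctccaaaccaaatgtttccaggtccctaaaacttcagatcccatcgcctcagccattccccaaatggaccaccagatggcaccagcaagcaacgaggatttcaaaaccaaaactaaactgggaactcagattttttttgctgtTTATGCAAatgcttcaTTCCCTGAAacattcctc
C1rb: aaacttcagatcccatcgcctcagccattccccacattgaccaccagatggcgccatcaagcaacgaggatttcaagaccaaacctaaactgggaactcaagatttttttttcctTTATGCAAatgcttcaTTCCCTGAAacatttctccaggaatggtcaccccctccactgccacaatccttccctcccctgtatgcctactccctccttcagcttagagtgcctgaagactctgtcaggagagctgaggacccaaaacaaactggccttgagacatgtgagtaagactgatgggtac
C1s1: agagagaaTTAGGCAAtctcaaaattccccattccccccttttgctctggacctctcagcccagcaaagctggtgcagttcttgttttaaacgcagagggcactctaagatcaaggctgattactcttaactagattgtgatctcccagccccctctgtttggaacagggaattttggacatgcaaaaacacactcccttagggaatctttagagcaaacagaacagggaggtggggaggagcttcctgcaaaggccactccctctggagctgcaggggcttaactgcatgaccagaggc
Cd55: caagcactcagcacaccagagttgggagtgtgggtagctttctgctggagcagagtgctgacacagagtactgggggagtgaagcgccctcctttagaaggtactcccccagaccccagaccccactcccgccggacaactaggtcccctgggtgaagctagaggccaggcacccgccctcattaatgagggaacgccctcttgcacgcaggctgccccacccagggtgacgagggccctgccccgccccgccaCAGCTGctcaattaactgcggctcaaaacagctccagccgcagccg

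The windows of C1ra and C1rb shared a stretch of 150 aligned bases at 92.7% identity, placed around the RefSeq start of C1ra and upstream of the RefSeq start of C1rb. Both held TTATGCAA, a match to the C/EBP form on the other strand, followed by TTCCCTGAA, a match to the STAT form. In C1ra these began 17 and 33 bases after the RefSeq start, and in C1rb 135 and 119 bases before it. GENCODE M21 starts both genes further upstream, C1ra at base 124512405 and C1rb at base 124570294 of chromosome 6. By that annotation the matches of both windows lie inside the genes, so their place relative to a start is uncertain. RefSeq gives 2 start sites for C1s1: the window shown held a C/EBP-form match (TTAGGCAA) 242 bases before its start. The other C1s1 window and that of C1s2 held no match to the 5 motifs. The Cd55 window held CAGCTG 5 bases after its start. Among windows not printed, that of C3, a gene too low to test, held a C/EBP-form match (TTGCGAAA) 45 bases before its start. That of C1rl held a C/EBP form (TTTTGCAA) 243 and an NF-kB form (GGTCTTTCC) 133 bases before its start. That of Cd59a held an interferon response form (GAAAGGGAA) 187 bases before its start. Among 32851 promoter windows in the table, TTGCNNAA was found in 10.8%, TTCNNNGAA in 8.30%, GAAANNGAA in 8.56%, GGNNTTTCC in 5.82% and CAGCTG in 16.3%. A match describes letters only.

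Upstream and downstream of these proteases the classical pathway was thin in these cells. C1qa, C1qb and C1qc, the chains of C1q, had 0 counts in all 6 libraries. C4b, which encodes C4 (chr17:34728380-34743882, minus strand), had 3, 5 and 7 counts at D0 and 2, 2 and 1 at D5, a ratio of the library-scaled counts of 0.535 with an exact interval of 0.152 to 1.55, so no difference was detectable at this depth. Its copy C4a, which encodes the sex-limited protein, carried nearly all reads of the pair (95.6% ± 1.75 at D0 and 97.4% ± 0.929 at D5, SD, n = 3). C4a stood at 3.12, 2.28 and 2.78 CPM at D0 and at 2.51, 2.51 and 2.65 CPM at D5. These ranges overlapped (log2 fold change -0.09, 95% interval -0.40 to 0.22, adjusted p = 0.599). In C4b 34.6% of the 50-base stretches also occur in C4a, so the split between them is uncertain, and together they held 2.85 ± 0.410 CPM in the D0 libraries and 2.62 ± 0.0582 CPM in those of D5. C2, the substrate of C1s that joins C4 in the C3-cleaving enzyme, had 13, 18 and 17 counts at D0 and 6, 5 and 6 at D5 (log2 fold change -0.80, SE 0.38, adjusted p = 0.0502). Of its exonic length, 42.8% also lies in Gm20547 on the same strand, where reads may go uncounted. C2 passed the filter through the D0 libraries alone, and its adjusted p was 0.0467 with upper-quartile and 0.0322 with total-count scaling. It was 0.189 with DESeq2, 0.0851 with no filter, 0.0688 with a replicate block and 0.0546 with scaling to the added ERCC spike-in RNAs. Where C2 was tested with 1 library left out, it was not called, with adjusted p up to 0.133.

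C3, the protein on which all pathways converge (chr17:57203970-57228136, minus strand), had 0, 1 and 2 counts at D0 and 5, 2 and 0 at D5. Cfb, the protease of the alternative pathway (chr17:34856374-34862518, minus strand), had 0 counts in the 3 D0 libraries and 1, 0 and 2 at D5. Neither differed detectably at this depth. Of the exonic length of Cfb, 79.5% also lies in Gm20547, a gene annotated across Cfb and C2 on the same strand, and reads in such overlaps may go uncounted (Gm20547 itself had 0 counts in every library), so the low count of Cfb is uncertain in a way that of C3, which overlaps no other gene, is not. Cfd, which encodes the protease that activates factor B, had 0 counts throughout. Cfp, which encodes properdin, the stabilizer of the alternative pathway enzyme, fell from 4.10 ± 0.244 to 2.58 ± 0.220 CPM (log2 fold change -0.67, SE 0.13, adjusted p = 4.3e-05), a call lost with scaling to the added ERCC spike-in RNAs (log2 fold change -1.22, adjusted p = 0.0645). No gene of the terminal pathway (Hc, C6, C7, C8a, C8b, C8g and C9) was high enough to test, 4 of these 7 had 0 counts in every library, and the highest count of any of them was 17, for C8g in 1 D5 library.

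Masp1 was the most abundant of the 9 genes at both times. Its gene (chr16:23449417-23520815, minus strand) gives rise to MASP-1, the protease that starts the lectin pathway, and, by splicing, to MASP-3 and a protein without protease activity, which a count per gene does not separate. It stood at 56.7, 58.2 and 54.3 CPM at D0 and at 124, 120 and 127 CPM at D5. The 2 sets were tight and far apart, and the change was 2.19-fold (log2 fold change 1.13, SE 0.04, adjusted p = 2.6e-22). Masp2, which encodes the protease that cleaves C4 in the lectin pathway, fell from 31, 28 and 36 counts to 7, 13 and 5. The log2 fold change was -1.24 (SE 0.33), and the ratio of the library-scaled counts was 0.422 (95% exact interval 0.260 to 0.662). Masp2 passed the filter through the D0 libraries alone, and 54.9% of its exonic length lies opposite exons of Tardbp. Tardbp fell too, from 290 ± 2.35 to 160 ± 7.07 CPM, so the value of Masp2 is uncertain without strand.

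Among the sugar-binding proteins listed here with the lectin pathway, Mbl1, Mbl2 and Fcnb had 0 counts in every library and Fcna and Colec11 at most 5. Colec10, which encodes collectin liver 1, fell from 40.4, 43.5 and 41.7 CPM at D0 to 7.20, 7.18 and 6.39 CPM at D5 (log2 fold change -2.60, SE 0.06, adjusted p = 8.8e-26). Colec12, which encodes a membrane-bound scavenger collectin, rose from 2.53, 1.90 and 2.31 CPM to 293, 272 and 272 CPM (log2 fold change 6.96, SE 0.06, adjusted p = 3.8e-37). These collectins thus changed in opposite directions, with no overlap between groups in either.

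Serping1 encodes the C1 inhibitor, the serpin that inactivates C1r, C1s and the MASPs (chr2:84765387-84775444, minus strand). It stood at 2.16, 1.62 and 1.51 CPM at D0 and at 3.42, 4.78 and 3.57 CPM at D5. Every D5 library was above every D0 library, with more spread than in Masp1. The change was 2.23-fold (log2 fold change 1.16, SE 0.16, adjusted p = 1.6e-07). It was just under 2-fold, at a log2 fold change of 1.00, without D5 replicate 2, the highest library. The inhibitor thus rose with a fold change smaller than that of C1ra: the 95% interval of its log2 fold change was 0.83 to 1.49, and that of C1ra 4.53 to 4.95, and the difference itself was not tested.

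Clu encodes clusterin, a secreted chaperone that also blocks assembly of the membrane attack complex (chr14:65968483-65981547, plus strand). It was the only one of the 9 genes called lower at D5. The D0 libraries held 4.99, 5.09 and 5.61 CPM and the D5 libraries 2.15, 2.03 and 1.89 CPM. The groups did not overlap, and the D5 level was 38.7% of that at D0 (log2 fold change -1.37, SE 0.13, adjusted p = 9.7e-11). Vtn, which encodes vitronectin, another inhibitor of that complex, had 17, 15 and 9 counts at D0 and 0, 3 and 1 at D5 and was not tested. Cfi, which encodes a plasma protease that cuts C3b and C4b, had 0 counts in all 6 libraries.

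Both membrane regulators rose. Cd55 encodes decay-accelerating factor, which takes apart the enzymes that cleave C3 (chr1:130439027-130462744, minus strand). It stood at 0.827, 0.618 and 0.620 CPM at D0 and at 12.6, 14.4 and 11.9 CPM at D5. No D0 library came near a D5 library, and the change was 18.9-fold (log2 fold change 4.24, SE 0.14, adjusted p = 1.1e-22). Its copy Cd55b, in which 8.00% of its 50-base stretches occur, had 0 counts throughout. A long noncoding gene inside the same neighbourhood, Gm15675, went from 0.0591 ± 0.0182 to 1.49 ± 0.174 CPM. Its D0 mean is below the level treated here as not detected. The other genes of that neighbourhood were too low to test.

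Cd59a encodes the membrane protein that blocks the last step of the membrane attack complex (chr2:104095801-104115354, plus strand). The D0 libraries held 5.52, 5.13 and 5.58 CPM and the D5 libraries 10.5, 9.85 and 9.28 CPM. The groups were separate but close, a 1.83-fold change (log2 fold change 0.87, SE 0.09, adjusted p = 3.2e-10), below 2-fold. Its copy Cd59b had at most 5 counts in any library.

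The other membrane regulators did not move as one. Cr1l encodes Crry, the mouse regulator that acts on both C3 and C4, and stood at 39.2, 37.5 and 38.7 CPM at D0 and 40.7, 36.3 and 38.4 CPM at D5. These ranges overlapped, and the 95% interval of the log2 fold change was -0.10 to 0.10. Cd46, membrane cofactor protein, was likewise not called (2.37 ± 0.213 and 2.44 ± 0.434 CPM, 95% interval of the log2 fold change -0.29 to 0.36), and 14.2% of its exonic length lies opposite exons of other genes. Thbd encodes thrombomodulin, a thrombin receptor that also restrains complement, and rose from 0.720, 0.761 and 1.02 CPM to 39.9, 35.2 and 40.8 CPM (log2 fold change 5.53, SE 0.10, adjusted p = 3.5e-29). Susd4, Csmd1, Csmd2 and Csmd3 were too low to test.

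**Figure D3:**
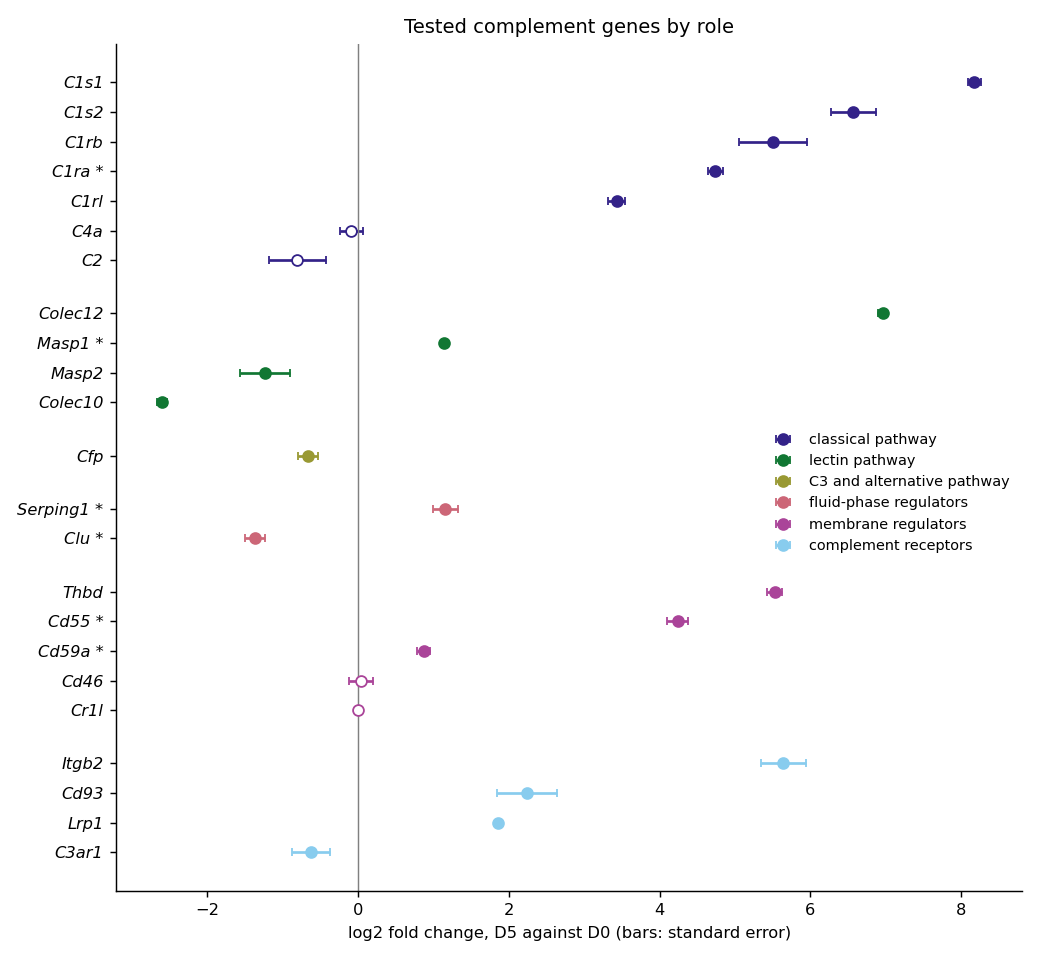
Log2 fold change of D5 against D0 with its standard error for the 23 tested genes of the complement lists, coloured by role. Filled points passed an adjusted p of 0.05 and open points did not, and an asterisk marks the 6 tested genes among the 9. The C1r and C1s genes all lie above 0, and C2 and C4a (open points) lie below it. C1s1, C1s2 and C1rb passed the filter on low counts through D5 alone. Genes of the lectin pathway, fluid-phase regulators and receptors lie on both sides of 0. The values of C1rb, C1s2 and Itgb2 rest on few D0 counts.

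Receptors for complement fragments were mostly low. C3ar1, the receptor of C3a, fell from 41, 44 and 34 counts to 15, 17 and 16 (log2 fold change -0.62, SE 0.25, adjusted p = 0.0240). That call was lost with DESeq2, with ERCC spike-in scaling (log2 fold change -1.24, adjusted p = 0.0785), and also when D0 replicate 1 or 2 or D5 replicate 1 or 3 was left out, with adjusted p up to 0.0737. Cr2, the receptor of C3 fragments on B cells, had 4, 6 and 7 counts at D0 and 0 in all D5 libraries. That is at least 1.17-fold lower against a floor of 3 counts in each library.

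Itgb2, the beta chain shared by complement receptors 3 and 4, had 1, 5 and 2 counts at D0 and 88, 86 and 89 at D5, a ratio of 52.8 (exact interval 26.4 to 124). The alpha chain of receptor 3, Itgam, had 0 counts at D0 and 10, 13 and 5 at D5, at least 4.99-fold higher against the same floor, and the alpha chain of receptor 4, Itgax, at most 1 count. Of the exonic length of Itgam, 68.7% also lies in Gm49368 on the same strand (0 counts in every library), so its counts carry the same limit as those of Cfb. Cd93, a receptor once described as one for C1q, had 7, 7 and 4 counts at D0 and 28, 15 and 11 at D5 (log2 fold change 2.24, SE 0.40). Itgb2 and Cd93 passed the filter through D5 alone. Lrp1, the endocytic receptor that clears complexes of the C1 inhibitor with its proteases among many other ligands, was abundant at both times and rose from 689 ± 8.89 to 2496 ± 50.2 CPM (log2 fold change 1.86, SE 0.03, adjusted p = 2.1e-29).

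The 7 complement lists, grouped by role, together name 61 genes, 23 of which were tested and 15 of which had 0 counts in every library. Of the 16 that reached the filter in both groups, 9 were higher and 4 lower at D5, beside 42.2% and 40.8% of all tested genes. The other 7 reached it in 1 group only.

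Per kb of exonic length, the scale on which genes can be set beside each other, the order of the 6 tested genes at D0 was Masp1 (5.74 ± 0.198 CPM per kb, SD, n = 3), Cd59a (2.99 ± 0.135), Clu (1.52 ± 0.0969), Serping1 (0.758 ± 0.150), C1ra (0.374 ± 0.0576) and Cd55 (0.142 ± 0.0247). At D5 it was Masp1 (12.6 ± 0.329), C1ra (9.97 ± 0.887), Cd59a (5.45 ± 0.338), Cd55 (2.68 ± 0.267), Serping1 (1.69 ± 0.321) and Clu (0.588 ± 0.0379). No neighbours in either order overlapped in their 3 libraries. Of the 50-base stretches of C1ra, 50.8% also occur in other genes, and reads from them may go uncounted. The share was 9.12% for Cd55, 3.87% for Cd59a, 0.175% for Masp1 and 0% for Serping1 and Clu. The place of C1ra, as beside Masp1 at D5, is therefore uncertain. C1ra moved from the fifth to the second place, and its level went from the 17.2 to the 71.5 percentile of the tested genes. Clu moved from the third place to the last, and from the 34.7 to the 20.4 percentile.

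**Figure D4:**
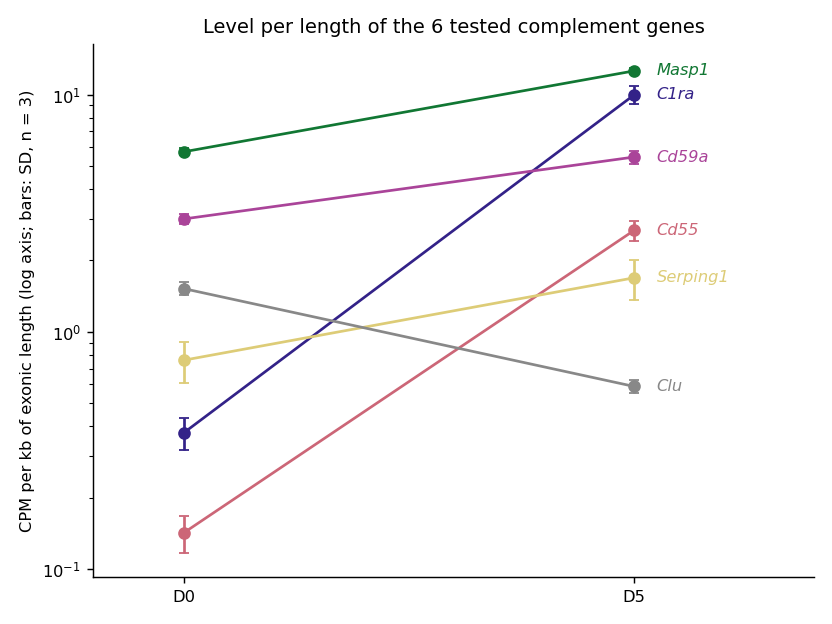
Mean level per kb of exonic length (CPM per kb, log axis, bars show the SD of 3 libraries) of the 6 tested complement genes at D0 and D5. The lines of C1ra and Cd55 cross those of Clu and Serping1, C1ra also crosses Cd59a, and Masp1 stays on top. Reads that C1ra shares with other genes may go uncounted, so its place is uncertain.

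Markers of other cells were counted beside these genes. Of 5 fibroblast markers, Pdgfra (log2 fold change 4.52, SE 0.10) and Col1a1 (3.51, SE 0.04) reached the filter in both groups. Both were called higher at D5, as were 42.2% of all tested genes. Dcn and Lum were also higher but passed the filter through D5 alone, and Lum had 0 counts at D0. Thy1 had at most 1 count in any library. The summed level of the list was 18.6 to 19.0 CPM in the D0 libraries and 460 to 489 CPM in the D5 libraries. The part of fibroblasts in the rise of the complement genes was not tested. Among leukocyte and macrophage markers, Adgre1 and Tyrobp had 0 counts in every library and Ptprc at most 1, and the 8 markers summed to 8.25 to 8.46 CPM in the D0 libraries and 7.08 to 8.15 CPM in those of D5, nearly all of it from Cd14 and Cd68. Itgam, also on that list, went the other way, from 0 counts to 10, 13 and 5, as did its partner Itgb2, and the part of leukocytes in these values was not tested. The 5 hepatocyte markers summed to at most 0.0405 CPM and the 4 adipocyte markers to at most 0.0405 CPM. The 4 endothelial markers summed to 3.31 to 3.59 CPM at D0 and 0.517 to 0.884 CPM at D5. In bulk RNA a change in the share of cells that express a gene and a change in its RNA per cell cannot be told apart.

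The added ERCC spike-in RNAs gave another scale. They took 0.720% to 2.09% of the counts, with more spread among the D5 libraries (0.720%, 1.20% and 2.09%) than among those of D0 (0.726% to 0.859%). Scaled to them, the median log2 fold change of all tested genes moved to -0.58. C1ra (4.13, adjusted p = 9.0e-11), Cd55 (3.72, adjusted p = 5.4e-09) and Clu (-1.96, adjusted p = 0.00207) stayed past the threshold. Serping1 (0.66, adjusted p = 0.345), Masp1 (0.56, adjusted p = 0.417) and Cd59a (0.31, adjusted p = 0.677) did not. Relative to the shifted median the values were 4.71 for C1ra, 4.30 for Cd55, 1.24 for Serping1, 1.14 for Masp1, 0.88 for Cd59a and -1.38 for Clu, and no direction changed among the 6 genes.

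**Figure D5:**
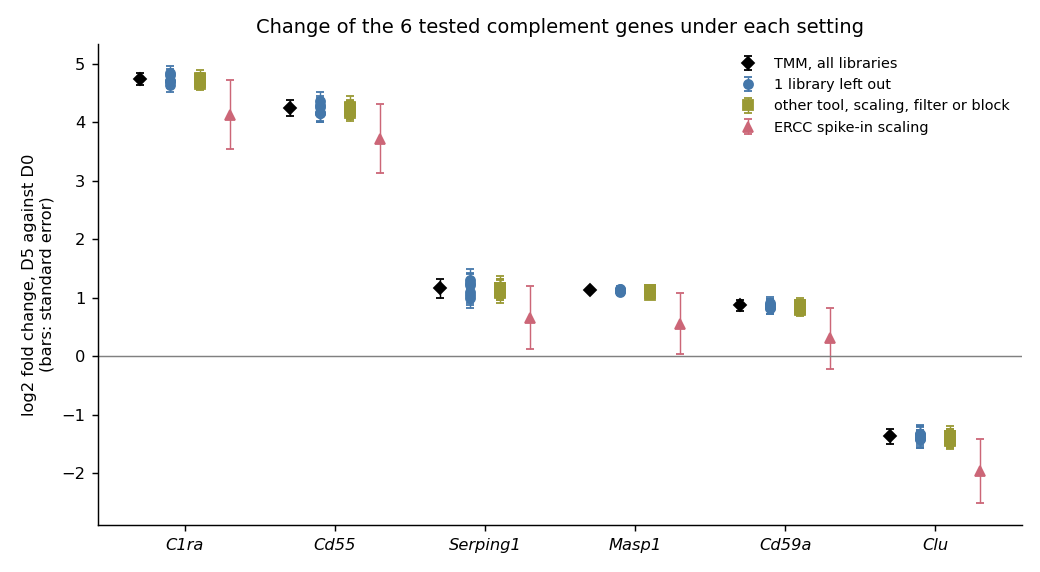
Log2 fold change of D5 against D0 with its standard error for the 6 tested complement genes with all libraries and TMM scaling, with each library left out, with other tools, scalings, filters or a replicate block, and with ERCC spike-in scaling. The values of each gene lie close together except with ERCC scaling, which lowers all 6 and widens their errors.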

How the data were processed

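The 9 genes and all lists were chosen with earlier results of these data known. RNA integrity numbers were above a set minimum per the labels. The deposited counts are whole reads per gene, which the authors made with featureCounts after alignment to GRCm38. The labels name Tophat2 and the study's methods HISAT2 as the aligner. The strand setting and annotation release are not given in the sources used here. The submitters' processing notes also name DESeq2 1.6.3. A row of column totals and the 92 ERCC rows (0.720% to 2.09% of counts) were left out of the gene table, and 99.8% of gene rows matched GENCODE M21, which gave coordinates and exonic lengths.

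Genes with enough counts (edgeR 4.0.16 filterByExpr, CPM cutoff 0.321) were tested with edgeR's quasi-likelihood test on the 3 D0 and 3 D5 libraries, TMM factors (0.969 to 1.04) and Benjamini-Hochberg adjustment over all 16290, in R 4.3.3. The code was tested on simulated data. The labels speak of 3 cultures per day without saying whether they were separate experiments, so p-values measure the spread between these libraries. No 2 libraries of a group agreed within sampling noise (chi-square per degree of freedom 2.28 to 3.71). Alternatives were DESeq2 1.42.0, other scalings and filters, a replicate block and leaving out each library. Named genes were the 9, their copies and every complement-list gene that passed the filter, and genes outside that rule (untested list genes and neighbours) were named after their values were seen. Some listed genes are not reported here and were taken out of the lists and their counts. Promoter sequences are from RefSeq (GRCm38.p6).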

Additional observations from a re-analysis of the deposited data

How the results depend on the processing

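The fold changes of the 6 tested complement genes kept their direction in all 78 alternative values and their side of the threshold in 75, the exceptions being Serping1 (0.66), Masp1 (0.56) and Cd59a (0.31) with ERCC scaling. With that scaling 5560 genes in all were called against 13510, 2 of the 9 genes were higher, 3 changed at least 2-fold, 3 had no overlap between groups, and 3 genes of the wider lists were lower. ERCC scaling moved the lower share of calls from 49.2% to 67.4%. With no filter on low counts 8 genes of the wider lists were lower against 5. Leaving out each library gave 13236 to 13599 calls, 5 of the 9 genes higher and 1 lower each time, 4 to 5 changed at least 2-fold, 6 without overlap, and 14 to 16 higher and 4 to 6 lower genes in the wider lists. The counts for the wider lists include genes that reached the filter in 1 group only, so they give no support to a direction. In the main fit 42.2% of all tested genes were higher and 40.8% lower. C4a, Cd46 and Cr1l, none of them called, changed sign. C4a ranged from -0.21 to 0.0022 with 1 library left out. Cd46 was at -0.045 with total counts, -0.51 with ERCC scaling and -0.014 with no filter, and ranged from -0.078 to 0.17 with 1 library left out. Cr1l was at -0.015 with upper-quartile scaling, -0.083 with total counts, -0.58 with ERCC scaling and -0.052 with no filter, and ranged from -0.038 to 0.045 with 1 library left out. The cause was not tested.

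Libraries of D0 and D5 share replicate numbers. Deviations from the group means correlated at 0.0223, 0.123 and 0.0570 within numbers and at -0.0803 to 0.0231 between them. D5 replicate 1 correlated slightly better with D0 replicate 3 (0.0231) than with D0 replicate 1. With 3 libraries per day these values cannot decide whether the numbers pair the libraries. With a replicate block 13558 genes were called, 5 of the 9 genes were higher and 1 lower, and Cr1l, not called, was at -0.00039. Depth limits C3, C4b and Cfb, with at most 7 counts in any library.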

Other observations

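In the liver, cytokines of the Il6 family acting through Stat3, with Cebpb and Cebpd, raise genes of complement and of the acute phase. Of 20 genes listed for that response, 13 were tested, all reaching the filter on low counts in both groups, and 9 were higher and 1 lower at D5 (edgeR's quasi-likelihood test, Benjamini-Hochberg adjusted p under 0.05), beside 42.2% and 40.8% of all tested genes. The median log2 fold change of the 13 was 1.34, against 0.00 over all tested genes. Osmr, the receptor of oncostatin M, stood at 14.4, 14.4 and 13.7 CPM at D0 and at 77.8, 66.5 and 69.1 CPM at D5 (log2 fold change 2.33, SE 0.06). Socs3, the feedback inhibitor of this signalling, stood at 7.23, 7.42 and 7.49 CPM and at 45.7, 39.5 and 38.7 CPM (log2 fold change 2.48, SE 0.07). Stat3 (1.34, SE 0.04), Cebpb (1.50, SE 0.09), Cebpd (1.79, SE 0.10), Il6ra (1.71, SE 0.08), Il6st (1.13, SE 0.04), Lifr (0.55, SE 0.03) and Ifngr2 (1.35, SE 0.05) were also higher on the log2 scale.

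Rela (-0.40, SE 0.04) was lower, and Irf1, Nfkb1 and Ifngr1 were not called. The secreted products of the response and Il6 itself were too low to test: Lcn2 had 0 counts in every library, and Saa3, Hp, Orm1 and Il6 had at most 4. Serpina3n had 0 counts at D0 and 11, 7 and 7 at D5, at least 4.44-fold higher against a floor of 3 counts in each library. Ptx3 had 0, 5 and 2 counts at D0 and 13, 7 and 14 at D5, a ratio of the library-scaled counts of 7.79 (95% exact interval 3.40 to 20.8). A link between these genes and the complement genes was not tested.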
